A study of Mus musculus with 12 samples.

Results

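The genes described here are 9 genes known to respond to oestrogen in breast, uterus or other tissues: Igfbp4, Pdzk1, Ltf, Greb1, Xbp1, Nrip1, Rara, Myc and Igf1. They were chosen by symbol from the deposited expression tables and linked by Ensembl identifier to the raw counts, and all 9 were found among the 21728 genes present in any count file. The members, and the gene lists set beside them, were chosen with earlier results of these data known. Their counts beside the shares over all genes are therefore descriptions, not tests of a set. The study compared mouse epiblast-like cells (EpiLCs, a formative pluripotent state) and primordial germ cell-like cells (PGCLCs, their germline derivatives in culture), each without treatment and in an arm labelled with 100 nM bisphenol A (BPA), a plastics monomer known as a weak oestrogen receptor ligand. Each of the 4 groups had 3 RNA-seq libraries, 12 in all. Every group came from C57BL/6 embryonic stem cells of the Blimp1-mVenus; Stella-ECFP (BVSC) genotype, which carry fluorescent reporters of the germ cell genes Prdm1 and Dppa3. The untreated EpiLCs, whose library names call them water controls, and the BPA EpiLCs were taken after 48 h of EpiLC culture, BPA being present from 24 h after seeding for 24 h. The untreated PGCLCs and the BPA-arm PGCLCs were day 5 cells sorted as positive for both reporters from dissociated aggregates, so both PGCLC groups share a reporter sort that the EpiLCs did not pass. The labels leave unsaid whether the PGCLC medium held BPA, and whether the replicates were separate cultures, so the p-values measure only the spread between these libraries. The comparisons ask whether genes with a known oestrogen response differ between the arms at each stage.

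Oestrogen acts mainly through the nuclear receptors Esr1 and Esr2, which bind DNA as dimers at the oestrogen response element (ERE), a palindrome of the core GGTCA and its complement, or are tethered to other transcription factors. Bound receptors recruit coactivators, and some targets feed back on the receptor: Nrip1 is a corepressor that the receptor itself induces, and Greb1 is a receptor cofactor. Ltf, the gene of the iron-binding protein lactotransferrin, is a classical oestrogen-induced gene of the mouse uterus, while in cultured early embryonic cells these genes have roles of their own, Myc in growth and Rara in retinoic acid signalling.

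On the mm10 build with the GENCODE M21 annotation, Igfbp4 lies at chr11:99041244-99054392, Rara at chr11:98927818-98974942 and Xbp1 at chr11:5520659-5525893, all on the plus strand of chromosome 11. Also on plus strands are Pdzk1 at chr3:96829284-96870926, Ltf at chr9:111019271-111042767, Myc at chr15:61985391-61990374 and Igf1 at chr10:87858265-87937042. Greb1 at chr12:16670615-16800886 and Nrip1 at chr16:76287400-76373827 are on minus strands. All 9 are annotated as protein-coding. Exons of Pdzk1 overlap opposite-strand exons of Gpr89 by 1333 bases, and those of Greb1 overlap an antisense gene by 736 bases. How strand was handled when reads were counted is not stated in the labels, so reads of such pairs may not have been separated. Gpr89 averaged 14.6 ± 1.71 CPM (counts scaled to library size) in untreated and 16.7 ± 0.91 CPM in BPA-arm PGCLCs (SD, n = 3), against a rise of Pdzk1 from 5.75 to 16.3 CPM on the same scale.

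A start region is shown for each of the 3 members that rose in BPA-arm PGCLCs, and for Greb1, whose groups there did not overlap. Nrip1, whose groups there did not overlap either, is not shown. Such regions are where a response element next to the start site would lie. Each run is the 250 bases upstream of an annotated RefSeq start (GRCm38.p6), written 5′ to 3′ on the strand of the gene. Capitals mark the ERE core GGTCA, or TGACC where it lies on the other strand.
Igfbp4, chr11:99040994-99041243, plus strand: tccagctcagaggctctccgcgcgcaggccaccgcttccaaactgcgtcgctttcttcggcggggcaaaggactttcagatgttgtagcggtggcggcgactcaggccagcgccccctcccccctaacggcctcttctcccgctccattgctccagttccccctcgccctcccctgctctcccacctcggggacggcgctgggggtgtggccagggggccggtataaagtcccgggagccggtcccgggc
Pdzk1, chr3:96829815-96830064, plus strand: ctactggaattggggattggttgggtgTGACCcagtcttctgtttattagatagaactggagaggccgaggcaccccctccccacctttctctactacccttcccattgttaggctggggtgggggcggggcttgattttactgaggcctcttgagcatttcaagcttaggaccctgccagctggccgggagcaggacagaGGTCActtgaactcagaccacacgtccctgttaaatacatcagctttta
Ltf, chr9:111019042-111019291, plus strand: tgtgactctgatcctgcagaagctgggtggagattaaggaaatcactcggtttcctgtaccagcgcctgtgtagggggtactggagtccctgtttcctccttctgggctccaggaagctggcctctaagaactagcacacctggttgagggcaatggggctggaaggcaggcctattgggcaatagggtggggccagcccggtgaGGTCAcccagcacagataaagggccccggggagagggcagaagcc
Greb1, chr12:16800887-16801136, minus strand: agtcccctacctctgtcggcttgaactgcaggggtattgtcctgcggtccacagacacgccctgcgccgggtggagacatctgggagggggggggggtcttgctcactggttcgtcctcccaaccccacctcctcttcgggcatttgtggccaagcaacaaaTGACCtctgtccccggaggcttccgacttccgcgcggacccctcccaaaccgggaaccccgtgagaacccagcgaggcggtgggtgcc

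The core began 223 and 49 bases upstream of the Pdzk1 start shown, 45 bases upstream of the Ltf start and 88 bases upstream of the Greb1 start shown, and was not in the Igfbp4 window. The Pdzk1 start shown lies 781 bases inside the longest annotated gene model, and the Ltf start 21 bases inside. Windows of other starts are not shown. That of Pdzk1 held no core, and that of Greb1 held cores 194 and 85 bases upstream. For Nrip1 a core began 77 bases upstream of 1 of its starts. RefSeq gave 14 such windows for 8 of the 9 members, Myc being the member with none. The full ERE, GGTCA, then 3 bases of any kind, then TGACC, read on both strands, was in 0 of the 14 windows, and in 0.0639% of all 32851 RefSeq windows of this length. The element TCAAGGTCA of the oestrogen-related receptors was also in 0 of 14, against 0.387% of all windows. The lone core, which both longer motifs contain, was in 7 windows of 6 members, against 35.2% of all windows, and the GC box GGGCGG in 5 windows of 3 members, against 32.7%. These matches describe letters in these windows, not binding.

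The 12 libraries held 11785338 to 34309195 counts assigned to genes, with every PGCLC library deeper than every EpiLC library. The count files list no gene under 10 counts, so an unlisted gene is known only to have had at most 9 counts, which is 0.254 to 0.740 CPM depending on the library. Levels are given as CPM on 1 scale for all 12 libraries, and log2 changes come from the fit of each comparison. Untreated EpiLC replicate 3 stood apart, with 12.9% of its counts in 96 ribosomal protein genes against 7.56% to 8.52% in the other EpiLC libraries. The library names of untreated and BPA-arm PGCLCs follow different schemes, and a summary row of multiply aligned reads is in all 3 BPA-arm PGCLC files and in no untreated one, as well as in 1 EpiLC file, BPA replicate 2. The labels name no batch, and BPA and any difference in handling between the PGCLC arms cannot be told apart. The summed level of 6 germ cell markers was 39.5 to 49.2 CPM in EpiLCs, 703 to 817 CPM in untreated PGCLCs and 589 to 650 CPM in BPA-arm PGCLCs. Between the PGCLC arms 3 of the 6 were lower with BPA and 0 higher. The 3 were Prdm14 (log2 change -0.63 ± 0.09), Tfap2c (-0.41 ± 0.08) and Prdm1 (-0.32 ± 0.08), while Dppa3 (-0.09 ± 0.10) did not pass. The sum of 5 epiblast markers was 1221 to 1344 CPM in EpiLCs, 712 to 765 CPM in untreated PGCLCs and 572 to 612 CPM in BPA-arm PGCLCs. The 5 did not move together. Between the untreated stages 3 were lower in PGCLCs and 1, Otx2, was higher (log2 change 2.75 ± 0.15). Between the PGCLC arms 1 of the 5 passed, Pou5f1, which was lower in the BPA arm (log2 change -0.59 ± 0.06, edgeR adjusted p = 0.00136). The fitted changes of 3 of the 5 were positive there. The sum of 13 endoderm markers was 761 to 1176 CPM in untreated PGCLCs and 9751, 10252 and 4956 CPM in BPA-arm replicates 1, 2 and 3, and 8 of the 13 rose. The sums of 7 trophoblast markers were 241 to 291 CPM in untreated and 312 to 412 CPM in BPA-arm PGCLCs. Most of these sums was Krt8, with means of 164 and 294 CPM. In the BPA arm 2 of the 7 were higher, Krt8 (log2 change 0.86 ± 0.17) and Cdx2 (1.71 ± 0.42), and 1 was lower, Krt7 (-0.85 ± 0.21). The sums of 7 mesoderm markers were 173 to 221 and 179 to 217 CPM, and those of 7 blood and endothelial markers 187 to 210 and 189 to 235 CPM. Most of the latter was Pecam1, with means of 179 and 186 CPM, and the blood marker Ptprc was unlisted in 11 of 12 libraries. Fewer cells of a type and less RNA per cell cannot be told apart in such bulk libraries.

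In PGCLCs, Igfbp4, Pdzk1 and Ltf were higher in the BPA arm, and no member was lower. These 3 of 9 members passed an adjusted p of 0.05 (edgeR quasi-likelihood test, Benjamini-Hochberg over 16753 genes), where 13.9% of all genes tested passed, 8.13% as higher and 5.72% as lower. Ltf, unlisted in the untreated arm, could enter the test only through the arm where it is high; of the 8 members listed in both arms, 2 passed. The groups did not overlap for 5 of the 9 members, Ltf among them, all higher in the BPA arm, where 35.2% of all genes did not overlap and 17.9% did so as higher. The median log2 change of the 9 members was 0.28 and that of all genes 0.01. As the members were chosen with earlier results of these data known, these counts and medians do not test them as a set. The plot of levels by library shows the values behind these counts.

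**Figure D1:**
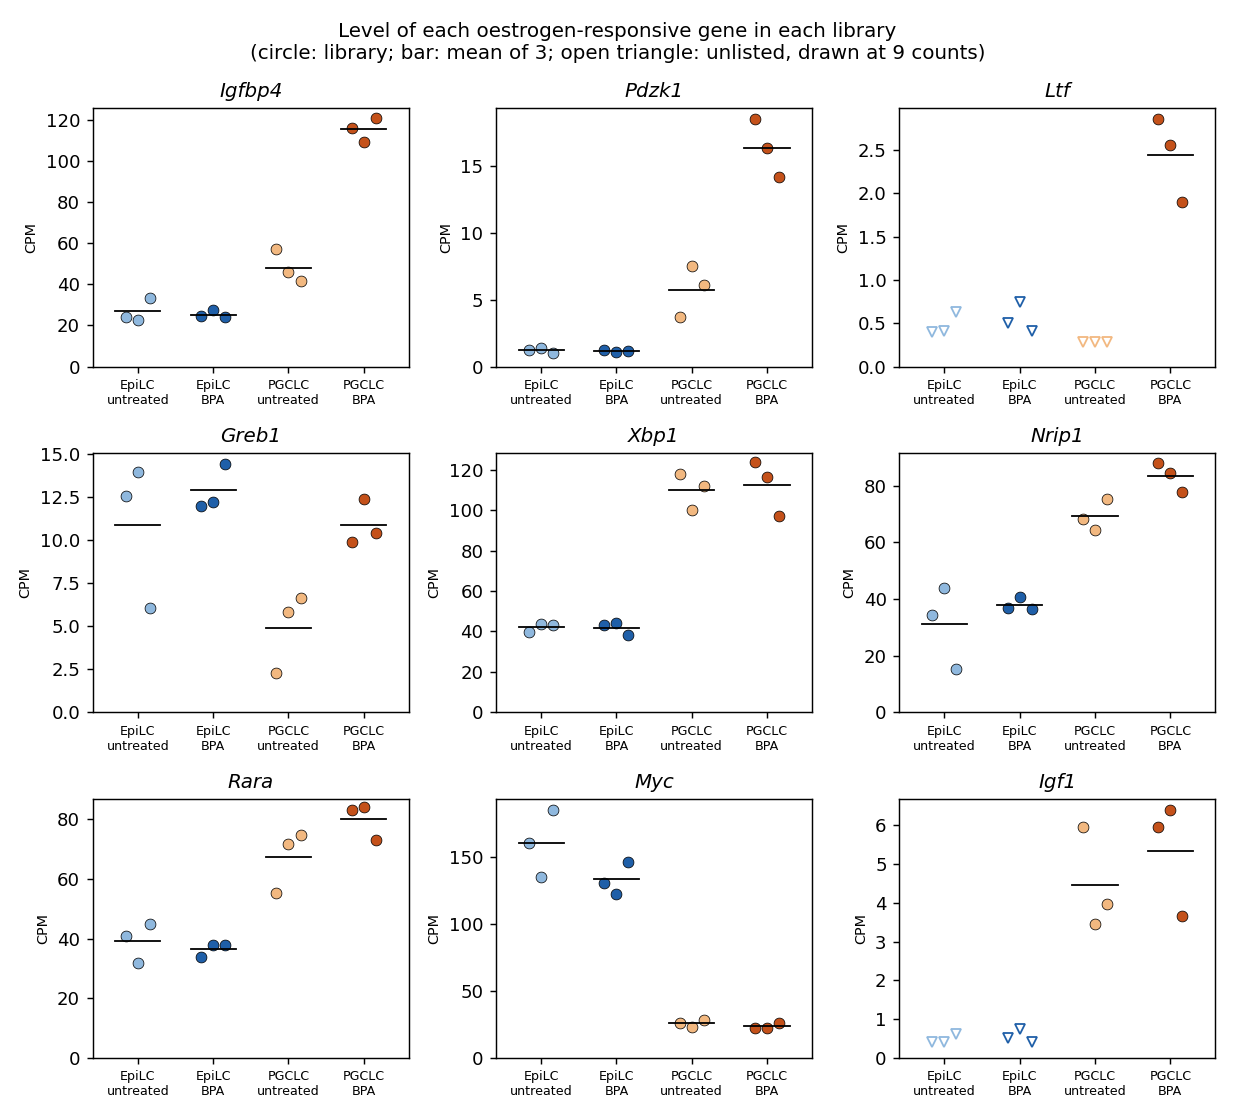
Level of each of the 9 genes in CPM (y axis, linear, from 0) in each of the 12 libraries (x axis, by group); circles are libraries, bars are means of 3, and open triangles are unlisted genes drawn at 9 counts. Igfbp4, Pdzk1 and Ltf are highest in the 3 BPA-arm PGCLC libraries, Myc is highest in the 6 EpiLC libraries, and Ltf is listed in 3 libraries.

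Igfbp4 encodes a secreted protein that binds insulin-like growth factors (IGFs) and limits their access to the receptor. Its level was 57.1, 45.9 and 41.4 CPM in untreated PGCLC replicates 1, 2 and 3, and 116, 109 and 121 CPM in the BPA-arm replicates. Every BPA-arm library was thus above every untreated one, and both sets were tight. The fitted log2 change was 1.27 ± 0.12 (SE; adjusted p = 0.00120), a 2.42-fold rise. Igf1, which encodes 1 of these IGFs, was at 5.96, 3.45 and 3.98 CPM in untreated and 5.95, 6.39 and 3.65 CPM in BPA-arm PGCLCs. Its groups overlapped, and the log2 change of 0.27 ± 0.31 did not pass (adjusted p = 0.665).

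Pdzk1 encodes a PDZ scaffold that holds the high-density lipoprotein receptor Scarb1 and several transporters at the membrane. It was at 3.67, 7.50 and 6.08 CPM in untreated and 18.5, 16.3 and 14.1 CPM in BPA-arm PGCLCs. The lowest BPA-arm library was nearly double the highest untreated one. The log2 change was 1.52 ± 0.26 (adjusted p = 0.0105), 2.86-fold. Without untreated replicate 3 the adjusted p was 0.0527, and without BPA-arm replicate 1 it was 0.0543, with log2 changes of 1.54 and 1.42.

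Ltf was unlisted in the other 9 libraries and listed in the 3 BPA-arm PGCLC libraries, with 88, 77 and 67 counts in replicates 1, 2 and 3. These are 2.86, 2.56 and 1.89 CPM, a low level that each of the 3 libraries shared. With 9 counts taken for each untreated PGCLC library, it was at least 8.57-fold higher in the BPA arm. The test, with unlisted libraries at 0, gave an adjusted p of 0.00552 (edgeR).

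Greb1 was at 2.26, 5.85 and 6.66 CPM in untreated and 9.88, 12.4 and 10.4 CPM in BPA-arm PGCLCs. The groups did not overlap, but the untreated libraries were spread nearly 3-fold. The log2 change of 1.16 ± 0.36 did not pass (adjusted p = 0.0696), though it did with DESeq2 (adjusted p = 0.0277), with limma voom (adjusted p = 0.0457), with no filter on low counts (adjusted p = 0.0339) and with limma-trend on the deposited CPM (adjusted p = 0.0322). Nrip1, the corepressor also called RIP140, was at 68.2, 64.4 and 75.3 CPM in untreated and 87.8, 84.6 and 77.7 CPM in BPA-arm PGCLCs. Its groups were separated by a gap of little more than 2 CPM. The log2 change of 0.28 ± 0.09 (adjusted p = 0.0765) passed with DESeq2 (adjusted p = 0.0288) and without BPA-arm replicate 3 (adjusted p = 0.0357).

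The other 3 transcriptional regulators overlapped between the arms. Rara, a nuclear receptor of retinoic acid, was at 55.3, 71.9 and 74.7 CPM in untreated and 83.3, 84.3 and 73.0 CPM in BPA-arm PGCLCs, a log2 change of 0.27 ± 0.13 (adjusted p = 0.213). Xbp1, whose spliced product drives the unfolded protein response, was at 118, 100.1 and 112 CPM in untreated and 124, 117 and 97.2 CPM in BPA-arm PGCLCs. Its log2 change was 0.04 ± 0.11 (adjusted p = 0.854), the nearest to 0 of the 9. Myc, a growth-promoting transcription factor, was at 26.3, 22.9 and 28.0 CPM in untreated and 22.2, 22.4 and 25.7 CPM in BPA-arm PGCLCs. It was the 1 member with a negative fitted change, -0.12 ± 0.12 (adjusted p = 0.600).

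The sum of endoderm markers was higher in the BPA arm, as Igfbp4, Pdzk1 and Ltf were. The orders of the 3 libraries within each arm are given as description only. Of the BPA arm, replicate 3 had the lowest sum, the lowest Pdzk1 and Ltf and the highest Igfbp4, at 121 CPM against 116 and 109 CPM. Of the untreated arm, replicate 1 had the highest sum (1176 CPM against 842 and 761), the highest Igfbp4 and the lowest Pdzk1. Of the endoderm markers, Afp rose from 46.4, 24.5 and 29.2 CPM to 2527, 2486 and 1365 CPM in replicates 1, 2 and 3, and the part of these markers in the members' changes was not tested. None of the 13 endoderm markers was unlisted in any PGCLC library. Without BPA-arm replicate 3, 4 of the 9 members passed, while the number of all genes that passed rose from 2321 to 3206.

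In EpiLCs, 24 h of BPA moved none of the members past the test. Ltf and Igf1 were unlisted in all 6 libraries, and of the 7 members tested 0 passed with edgeR, with DESeq2 or with limma voom. The lowest unadjusted p among them was 0.122, for Myc. Of all 15252 genes tested, 0% passed with edgeR, 118 had an unadjusted p under 0.05, and DESeq2 called 16, none of them a member. The groups overlapped for all 7 members, where 6.03% of all genes did not overlap, 2.5% of all as higher.

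Igfbp4 was at 24.1, 22.7 and 33.5 CPM in untreated and 24.4, 27.6 and 23.8 CPM in BPA EpiLCs, a log2 change of -0.06 ± 0.16. Myc was at 160.3, 135.0 and 185.0 CPM in untreated and 130.4, 122.3 and 146.2 CPM in BPA EpiLCs, a log2 change of -0.25 ± 0.14. Pdzk1 stayed between 1.04 and 1.42 CPM in all 6 libraries, with a log2 change of -0.09 ± 0.34. For these 3 members the untreated and BPA ranges overlapped. Myc was lower in the BPA library of all 3 same-numbered pairs, and with the replicate number as a block it did not pass either (-0.24, adjusted p = 0.896). Xbp1 was at 39.8, 43.8 and 43.2 CPM in untreated and 43.0, 44.4 and 38.2 CPM in BPA EpiLCs, a log2 change of 0.00 ± 0.11. Rara was at 40.7, 31.9 and 44.8 CPM in untreated and 33.7, 37.8 and 37.9 CPM in BPA EpiLCs, a log2 change of -0.08 ± 0.15. For both genes the BPA range again overlapped the untreated one.

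Greb1 and Nrip1 had the largest positive fitted changes in EpiLCs, and both followed untreated replicate 3. Greb1 was at 12.6, 14.0 and 6.06 CPM in untreated and 12, 12.3 and 14.5 CPM in BPA EpiLCs, and Nrip1 at 34.4, 43.7 and 15.2 CPM against 36.7, 40.6 and 36.6 CPM. Untreated replicate 3, the library with the high ribosomal protein share, was the lowest of the 6 for both genes. The log2 changes of 0.25 ± 0.30 and 0.29 ± 0.35 became -0.04 and -0.05 without it.

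The difference between the arms was larger in PGCLCs than in EpiLCs for Igfbp4, by 1.34 ± 0.22 on the log2 scale (interaction term of the 12-library edgeR fit, adjusted p = 0.0130). It was the 1 member to pass this test, where 1.32% of all genes passed. Without BPA EpiLC replicate 1 the adjusted p was 0.0553 at a difference of 1.32. For Pdzk1 the difference was 1.61 ± 0.38 (adjusted p = 0.0740). Pdzk1 passed with DESeq2 (adjusted p = 0.0201), with unlisted genes at 9 counts (adjusted p = 0.0439) and without any 1 of untreated EpiLC replicate 3, untreated PGCLC replicate 1 or 2, or BPA-arm PGCLC replicate 3 (adjusted p = 0.0408, 0.0493, 0.0331 and 0.0409). For Greb1 it was 0.91 ± 0.51 (adjusted p = 0.471), and for Rara 0.35 ± 0.21 (adjusted p = 0.498). For Xbp1, Nrip1 and Myc it was 0.05 ± 0.16, -0.01 ± 0.37 and 0.13 ± 0.19. Ltf and Igf1, unlisted in every EpiLC library, gave no usable difference in this fit. Ltf did pass with limma voom (adjusted p = 0.0405) and with unlisted genes at 9 counts (a difference of 2.95, adjusted p = 0.00652), values that rest on what is put in place of the unlisted counts. The sorting of PGCLCs and the library naming differ along with stage and arm, and their part in these differences was not tested.

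**Figure D2:**
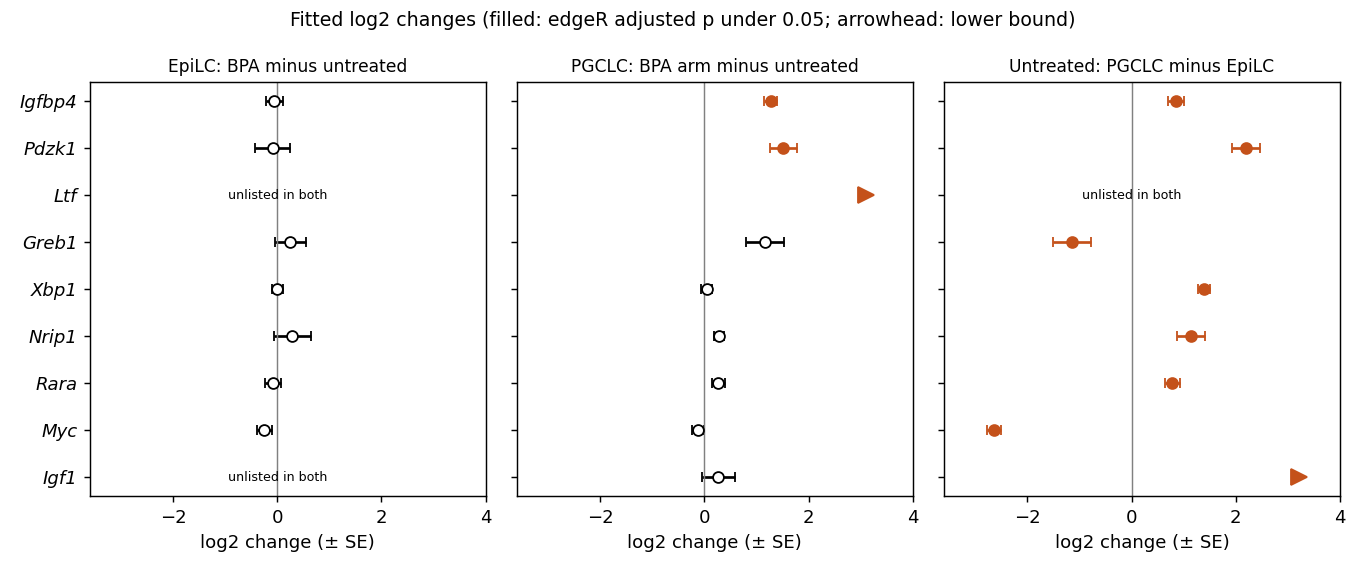
Fitted log2 change ± SE (x axis) of each of the 9 genes (y axis) for BPA in EpiLCs, for the BPA arm in PGCLCs, and for untreated PGCLCs against untreated EpiLCs; filled points passed an edgeR adjusted p of 0.05 and arrowheads are lower bounds. No point is filled in EpiLCs, Igfbp4, Pdzk1 and Ltf are filled in PGCLCs, and Myc stands far to the left in the stage panel at -2.64.

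Between the stages most members differed. In the untreated arm 6 of 9 were higher and 2 lower in PGCLCs than in EpiLCs, where 55.6% of all 17608 genes tested passed, 30.4% as higher and 25.2% as lower. Igf1, unlisted in every EpiLC library, could enter this test only through PGCLCs, where it is high, and is among the 6. The groups did not overlap for 7 members, 6 of them higher, against 60.3% of all genes and 32.1% as higher. Most genes tested passed, so the members' count says little particular to them. The median log2 change of the members was 0.85, with Ltf, unlisted in both groups, at 0, against 0.07 over all genes. The libraries of the stages also differ in sort, depth and naming scheme, which cannot be told apart from stage.

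Myc showed the largest fall of the 9, from 160.3, 135.0 and 185.0 CPM in untreated EpiLCs to 26.3, 22.9 and 28.0 CPM in untreated PGCLCs (log2 change -2.64 ± 0.14, adjusted p = 3.09e-08). Every PGCLC library lay far below every EpiLC library. Greb1 fell by 1.15 ± 0.36 on the log2 scale (adjusted p = 0.0181), although untreated EpiLC replicate 3 at 6.06 CPM lay below untreated PGCLC replicate 3 at 6.66 CPM. Without untreated EpiLC replicate 1 or 2, or with the 6 untreated libraries alone, Greb1 did not pass (adjusted p = 0.0594, 0.0696 and 0.0737).

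The other 6 members that passed were higher in PGCLCs. Igf1 went from unlisted in all 6 EpiLC libraries to listed in all 6 PGCLC libraries, at least 9.29-fold higher in the untreated arm. Pdzk1 rose by 2.20 ± 0.27 on the log2 scale (adjusted p = 3.15e-05), from a mean of 1.24 CPM to one of 5.75 CPM. Xbp1 rose by 1.38 ± 0.12, from a mean of 42.3 CPM to at least 100.1 CPM in every untreated PGCLC library. Nrip1 rose by 1.15 ± 0.27 (adjusted p = 0.00316), Igfbp4 by 0.85 ± 0.16 (adjusted p = 0.000734) and Rara by 0.78 ± 0.15. None of these 6 overlapped between the untreated stages.

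In the BPA arm 7 of 9 members were higher and 1 lower in PGCLCs, where 57.5% of all genes passed, 32.5% as higher and 25% as lower. Ltf and Igf1, unlisted in every EpiLC library, could enter this test only through PGCLCs, where they are high. Both are among the 7, and among the members without overlap. The groups did not overlap for 8 members, 7 of them higher, against 73.2% of all genes and 40.5% as higher, and the members' median log2 change was 1.43 against 0.13 over all genes. Pdzk1 was higher by 3.80 ± 0.28 and Igfbp4 by 2.193 ± 0.16 on the log2 scale, and Ltf at least 4.43-fold and Igf1 at least 9.68-fold. Xbp1, Nrip1 and Rara were higher by 1.43 ± 0.12, 1.14 ± 0.27 and 1.14 ± 0.15, and Myc lower, at -2.50 ± 0.14. Greb1 did not pass in the BPA arm (-0.25 ± 0.35, adjusted p = 0.575). This comparison shares its PGCLC libraries with the arm comparison above, so the values of Igfbp4, Pdzk1 and Ltf are not separate evidence.

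Per kilobase of exon, which allows levels of different genes to be compared, Myc led in EpiLCs and Xbp1 in PGCLCs. In untreated EpiLCs the mean levels were 58.9 CPM per kilobase for Myc, 13.0 for Xbp1, 8.97 for Rara, 6.06 for Igfbp4, 2.72 for Nrip1, 1.14 for Greb1 and 0.348 for Pdzk1. In this order the ranges over 3 libraries overlapped between Rara and Igfbp4 and between Nrip1 and Greb1, and were separate for the other neighbours. In BPA EpiLCs the order was the same, from Myc at 48.9 to Pdzk1 at 0.326 CPM per kilobase. In untreated PGCLCs Xbp1 led at 33.9 CPM per kilobase, followed by Rara at 15.4, Igfbp4 at 10.9, Myc at 9.47, Nrip1 at 6.05, Pdzk1 at 1.62, Greb1 at 0.514 and Igf1 at 0.451. There the neighbours Rara and Igfbp4, Igfbp4 and Myc, and Greb1 and Igf1 overlapped. In BPA-arm PGCLCs Igfbp4 stood at 26.1 CPM per kilobase, behind Xbp1 at 34.7 and ahead of Rara at 18.4, with no overlap to either. Myc at 8.62, Nrip1 at 7.28 and Pdzk1 at 4.59 followed without overlap, then Greb1 at 1.14, Ltf at 0.707 and Igf1 at 0.538, of which Ltf and Igf1 overlapped.

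**Figure D3:**
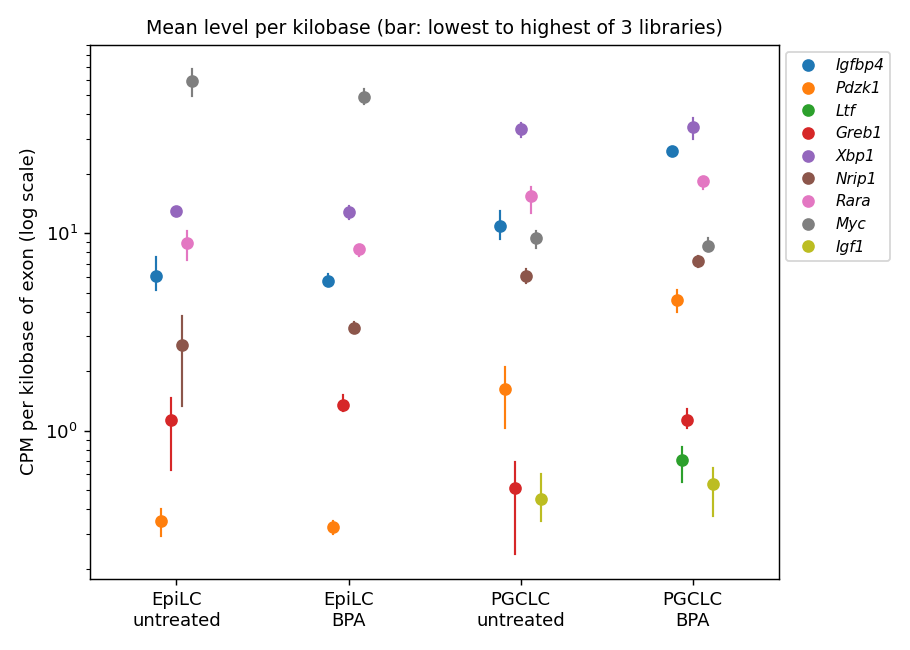
Mean level of each gene in CPM per kilobase of exon (y axis, log scale) in the 4 groups (x axis); vertical bars run from the lowest to the highest of 3 libraries, and a gene unlisted in a group is not drawn. Myc is the highest point in both EpiLC groups and Xbp1 in both PGCLC groups, and Igfbp4 lies above Rara in BPA-arm PGCLCs alone.

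The receptors through which oestrogen acts were at the edge of detection in every group. Esr1 was listed in 2 of 12 libraries, untreated PGCLC replicates 1 and 3, at 0.733 and 0.350 CPM. Esr2 was listed in EpiLCs, at 0.672 and 0.823 CPM in untreated replicates 1 and 2 and at 1.07, 0.987 and 0.766 CPM in the BPA replicates, and in no PGCLC library. The membrane oestrogen receptor gene Gper1 was listed in untreated and BPA-arm PGCLC replicate 3, at 0.510 and 0.792 CPM. So no library lists more than 1 of Esr1 and Esr2, and Esr1, Esr2 and Gper1 could not be tested in the PGCLC arms. In EpiLCs the log2 change of Esr2 with BPA was 0.86 ± 1.01 (adjusted p = 0.943).

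The oestrogen-related receptors, which bind a like element without oestrogen, were better covered. Esrrb, a pluripotency factor, was at 8.91 to 12.3 CPM in EpiLCs, at 547.7, 537.8 and 572.8 CPM in untreated PGCLCs and at 429.6, 426.8 and 398.3 CPM in BPA-arm PGCLCs. It was lower in the BPA arm, at a log2 change of -0.39 ± 0.05 (adjusted p = 0.00476), with no overlap. Esrra, a regulator of mitochondrial genes, changed by 0.23 ± 0.18 in PGCLCs and did not pass (adjusted p = 0.487). Esrrg was listed in PGCLCs at up to 2.69 CPM and did not pass (adjusted p = 0.300). Of 17 nuclear receptor coregulators, 1 was higher and 0 lower in the BPA arm, the coactivator Ncoa6 (0.36 ± 0.08, adjusted p = 0.0267), and the list's median log2 change was -0.03. With BPA-arm replicate 3 kept and 1 other library left out, 0 of the 17 passed, and 3 passed without that replicate. Over all genes, 668 to 1243 passed in the former case and 3206 in the latter. Between the untreated stages 10 of the 17 were higher and 2 lower in PGCLCs, with a median of 0.72, and the acetyltransferase gene Crebbp had the smallest p (2.08 ± 0.20).

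Among 17 tested genes of 20 others known to respond to oestrogen, 4 were higher and 0 lower in BPA-arm PGCLCs, with a median log2 change of 0.14. Ihh, a hedgehog ligand, went from 3.06, 2.58 and 2.04 CPM to 28.9, 29.6 and 11 CPM (3.19 ± 0.40, adjusted p = 0.00319). Prlr, the prolactin receptor, changed by 1.57 ± 0.22, the keratin gene Krt19 by 1.13 ± 0.25, and Ctsd, which encodes cathepsin D, by 0.56 ± 0.12. All 4 were lowest of the BPA arm in replicate 3. The part of the endoderm markers in these changes was not tested. The progesterone receptor gene Pgr, a standard oestrogen target, did not pass (-0.06 ± 0.79, adjusted p = 0.976). Leaving out 1 PGCLC library at a time, 2 of these genes passed except without BPA-arm replicate 3, when 5 did. The counts over all genes moved the same way, to 668 to 1243 and to 3206.

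Around Igfbp4 and Igf1, 3 of 12 tested genes of the IGF axis were higher and 1 lower in BPA-arm PGCLCs, with a median log2 change of 0.68. Igf2, the fetal growth factor ligand, was at 322.5, 312.4 and 247.6 CPM in untreated and 841.0, 776.0 and 844.3 CPM in BPA-arm PGCLCs. The groups were far apart, and Igf2 rose by 1.49 ± 0.10 (adjusted p = 0.000338), and more than in EpiLCs (interaction 1.43, adjusted p = 0.00987), though not with limma voom (1.49, adjusted p = 0.126). The insulin receptor gene Insr rose by 0.71 ± 0.10 and the receptor substrate gene Irs2 by 0.89 ± 0.14, while Igfbp3, another IGF-binding protein gene, fell (-0.69 ± 0.17, adjusted p = 0.0356). The IGF receptor gene Igf1r had a log2 change of -0.07 ± 0.10 and did not pass (adjusted p = 0.759). In the untreated stage comparison 7 of 11 tested genes of the axis were higher in PGCLCs and 0 lower, Igf2 by 6.70 ± 0.17 and the clearance receptor gene Igf2r by 2.29 ± 0.23.

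Of the partners of Pdzk1, Scarb1 rose from 92.5, 92.8 and 89.0 CPM to 187, 183 and 124 CPM (0.86 ± 0.15, adjusted p = 0.0105). The related scaffold gene Slc9a3r1 rose by 0.63 ± 0.14 (adjusted p = 0.0236), so 2 of the 4 genes of that list were higher and 0 lower. Leaving out 1 library other than BPA-arm replicate 3 left 0 or 1 of them. The list set beside Ltf held 4 genes of the transferrin family and of transferrin receptors. Of these, Trf, the gene of serum transferrin, was unlisted in untreated PGCLCs and at 8.25, 7.82 and 5.37 CPM in the BPA arm. Its level there was at least 25.1-fold higher. The transferrin receptor gene Tfrc fell, from 640.3, 510.1 and 538.8 CPM to 363.6, 373.6 and 292.2 CPM (-0.70 ± 0.12, adjusted p = 0.00916).

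Around Rara, 3 of 15 tested retinoid genes were higher and 0 lower in BPA-arm PGCLCs, with a median log2 change of 0.32. Cyp26a1, which encodes a retinoic acid-degrading enzyme, was at 11.3, 6.69 and 9.36 CPM in untreated and 168, 163 and 8.99 CPM in BPA-arm PGCLCs. Its rise (3.65 ± 0.90, adjusted p = 0.0344) was thus seen in 2 of 3 libraries, replicate 3 being within the untreated range. Rdh10, an enzyme of retinoic acid synthesis, changed by 1.66 ± 0.40, and Rxrb, a partner receptor of Rara, by 0.32 ± 0.07. With BPA-arm replicate 3 kept and 1 other library left out, 0 or 1 of the list passed, and 5 passed without that replicate. Calls over all genes were 668 to 1243 in the former case and 3206 in the latter. Between the untreated stages 3 of 17 retinoid genes were higher and 7 lower in PGCLCs, with Rarg lower (-0.85 ± 0.13) where Rara was higher.

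Around Xbp1, which itself did not differ between the PGCLC arms, 3 of 20 unfolded protein response genes were higher and 1 lower in the BPA arm, with a median log2 change of 0.01. Herpud1 (0.96 ± 0.19), Dnajb9 (0.68 ± 0.17) and Sec24d (0.51 ± 0.11) were higher and the translocon gene Sec61b was lower (-0.66 ± 0.08). Between the untreated stages, where Xbp1 rose, 6 of the 20 were higher and 3 lower in PGCLCs with a median of 0.11, among them Eif2ak3, a stress sensor, higher (1.33 ± 0.19), and Herpud1 lower (-1.08 ± 0.16). Leaving out 1 library with BPA-arm replicate 3 kept left 1 of the 20 past the test in the PGCLC arms. Without that replicate 8 of them passed, where 3206 of all genes did against 2321 with every library.

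Around Myc, 0 of 16 known Myc targets were higher and 7 lower in BPA-arm PGCLCs, with a median log2 change of -0.20, while Myc did not pass. The falls were small: the nucleolar genes Nop58 and Fbl fell by 0.39 ± 0.05 and 0.29 ± 0.07 on the log2 scale, Odc1, which encodes ornithine decarboxylase, by 0.30 ± 0.07, and Npm1 by 0.22 ± 0.04. With BPA-arm replicate 3 kept and 1 other library left out, 1 or 2 of the 16 passed, and 11 passed without that replicate. Calls over all genes moved likewise, to 668 to 1243 and to 3206. Of 11 Myc family and Max partner genes, Mxi1 was higher (0.61 ± 0.16, adjusted p = 0.0425), and the list's count of 1 became 0 to 3 in each of 11 other settings, and 0 with any 1 library but BPA-arm replicate 3 left out. Between the untreated stages, where Myc fell, 13 of the 16 targets were lower and 2 higher in PGCLCs with a median of -0.77, Nop56 having the smallest p (-1.57 ± 0.11). Its relative Mycn rose over the same step, from 14.5 to 22.9 CPM in untreated EpiLCs to 184 to 233 CPM in untreated PGCLCs (3.55 ± 0.17).

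In EpiLCs 0 genes of any of these 10 lists passed with BPA by edgeR, each at an adjusted p of 0.943 for its gene with the smallest unadjusted p. That gene was Igfbp2 in the IGF axis (-0.37 ± 0.26), Cyp26a1 among the retinoid genes (-0.50 ± 0.25) and Mnt in the Myc family (0.26 ± 0.12).

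**Figure D4:**
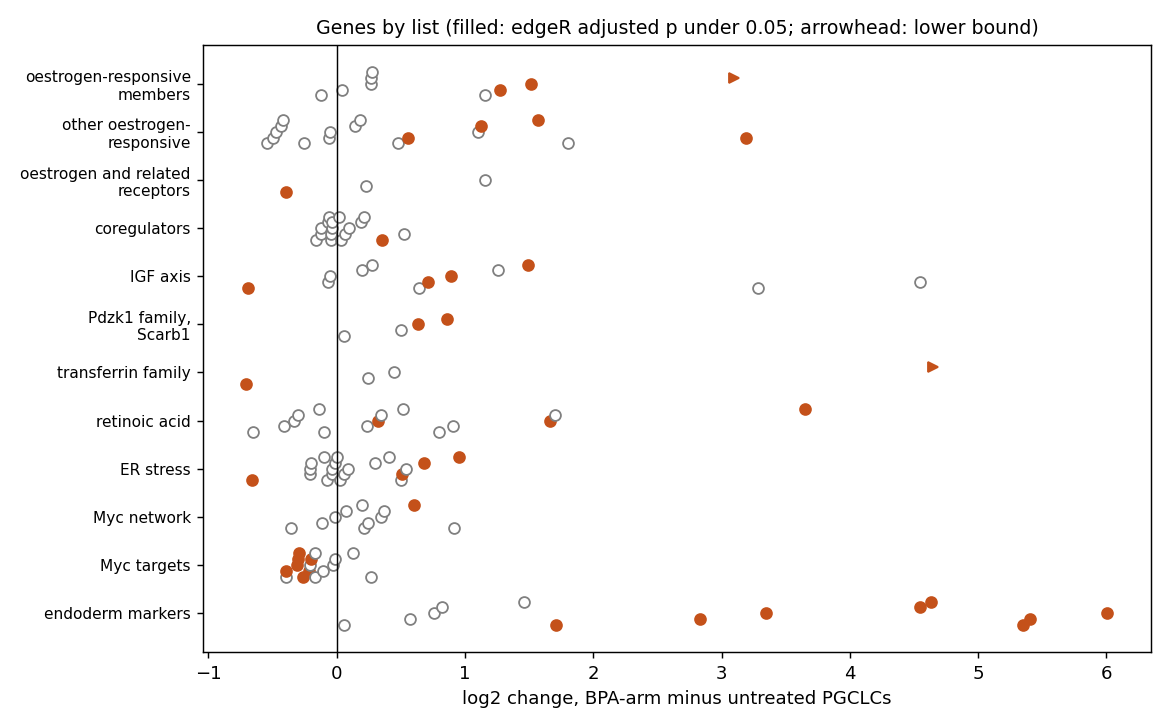
Log2 change of each tested gene between BPA-arm and untreated PGCLCs (x axis), by gene list (y axis, points spread vertically for sight); filled points passed an edgeR adjusted p of 0.05 and arrowheads are lower bounds. Filled points lie to the right of 0 for the oestrogen-responsive lists and to the left for the 7 Myc targets that fell.

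The genes whose pattern over the 12 libraries was most like that of a member were found by the root mean square (RMS) difference of centred log2 CPM among 10157 candidate genes. For Igfbp4 they were Tnfrsf1a, a tumour necrosis factor receptor gene (RMS 0.15), and Letmd1 (0.18). For Pdzk1 they were Bmp1 and the imprinted gene Peg10 (both 0.31), and for Greb1 the receptor kinase gene Mertk (0.21) and Ano9 (0.28). These RMS values are larger than those of the members that differed mainly by stage. They were not scaled to each member's own spread, which was 1.62 for Pdzk1 and 0.535 for Rara (SD of log2 CPM). Xbp1 was nearest to Tmem263 (0.069) and Cds1 (0.087), Nrip1 to Frs2 (0.088) and Fnip2 (0.10), Rara to Hgs (0.11) and Edem2 (0.12), and Myc to the replication gene Gins2 (0.11) and Ptgis (0.14). Ltf and Igf1 were not listed in all libraries and were not matched.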

How the data were processed

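RNA-seq libraries of 12 mouse samples were used, 3 in each of 4 groups taken from sample titles. Per the submitters' processing notes, the authors used bcl2fastq 2.19.1.403, FastQC, STAR, HTSeq and the mm10 build. Libraries were strand-specific (NuGEN Universal Plus), per the labels' protocols. The deposited counts are whole reads per gene, 1 file a library, and the authors listed no gene under 10 counts. Summary rows for no feature (4.42% to 10.7% of reads) and ambiguity (4.35% to 6.07%) stayed out of totals. The deposited CPM tables equal these counts over 1 constant per library and served as an alternative. Unlisted genes were taken as 0 in fits.

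Counts were tested with edgeR 4.0.16 in R 4.3.3 (filterByExpr, TMM factors, quasi-likelihood F test, Benjamini-Hochberg over all genes tested). The arms were compared in 6 libraries each, and stages and the interaction in a fit of all 12. The standard error is the log2 change over the root of F. A called gene has an adjusted p under 0.05. Levels are CPM with TMM factors of all 12 libraries, and similar genes used log2 CPM with a prior count of 2, taking the 2 nearest protein-coding genes per member from those averaging 5 CPM or more. Up to 4 called genes with the smallest p were named per list, or the gene with the smallest p where none was called; Igf1r, Pgr, Esrra and Esrrg were also named, and chosen after their values were seen. The members and lists were chosen with earlier results of these data known. The main test was checked on simulated data. Alternatives used RLE factors, library sizes alone, other filters, DESeq2 1.42.0, limma 3.58.1, a replicate block, 9 counts for unlisted genes and leaving out each library.

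Same-numbered EpiLC libraries deviated together (correlations of 0.16, 0.31 and 0.45 over 10724 genes), same-numbered PGCLC libraries did not (0.04, -0.04 and -0.07). Across numbers, EpiLC replicates 1 and 2 correlated as highly (0.17 and 0.34). For untreated EpiLC replicate 3, title and description give different replicate numbers; the title was used.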

Additional observations from a re-analysis of the deposited data

Results flagged for a closer look

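The difference between the arms for Igfbp4 itself differed between the stages. The log2 change of Igfbp4 was 1.27 ± 0.12 between the PGCLC arms and -0.06 ± 0.16 between the EpiLC groups, and the interaction term, which tests the difference, was 1.34 ± 0.22 (edgeR, adjusted p = 0.0130). All 3 BPA-arm PGCLC libraries lay above all 3 untreated ones, and the EpiLC groups overlapped. Without BPA EpiLC replicate 1 the adjusted p was 0.0553. The EpiLCs were exposed for 24 h before harvest and the PGCLCs were sorted at day 5, and the part of either in the difference was not tested.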

How the results depend on the processing

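Of 793 values of single members under alternatives, 774 kept their side of the threshold, 6 lost the threshold, 13 passed it, and 0 called values reversed; those that crossed it are named beside their results, or below for the block. The number of members called in PGCLCs was 3, and 5 with DESeq2, which added Greb1 and Nrip1. Leaving out 1 library gave 2 to 4. The share of all genes called there with DESeq2 or the replicate block is not given here. Without that share, these counts cannot be read as particular to the members. The number with an interaction was 1, but 2 with DESeq2 (Pdzk1 added), 2 with limma voom (Ltf added) and 3 with unlisted genes at 9 counts (Pdzk1 and Ltf added), and 0 to 2 with 1 library left out. The cause was not tested. Counts in EpiLCs (0) and between stages (8 in each arm) stayed within 1.5 times. Over all genes, EpiLCs gave 0 and DESeq2 16. PGCLC arms gave 2321, but 668 to 1243 without 1 library other than BPA-arm replicate 3, and 3206 without that replicate. The interaction gave 232, but 897 with DESeq2, 141 with limma voom, 519 with unlisted genes at 9 counts and 83 to 767 with 1 library left out.

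With the replicate number as a block, 0 members were called in EpiLCs and 4 in PGCLCs, where Greb1 joined (adjusted p = 0.0467). The block gave 8 in each stage comparison and 1 for the interaction, with 150 genes in all against 232. Not every EpiLC library correlated best with its own number. Untreated replicate 1 had a correlation of 0.164 with BPA replicate 1 and 0.174 with BPA replicate 2. Untreated replicate 2 had 0.307 with BPA replicate 2 and 0.343 with BPA replicate 1. Among the gene lists, counts in PGCLCs that moved by over 1.5 times with another tool or filter were the Myc family (1 against 0 to 3 in all 11 alternatives), Myc targets (7 against 2 to 9), coregulators (1 against 0 to 4), the IGF axis (4 against 3 to 7), other oestrogen-responsive genes (4 against 3 to 7), retinoid genes (3 against 1 to 4), the unfolded protein response (4 against 2 to 6) and the transferrin list (2 against 1 to 2). An unlisted gene limits any fold to a bound, which depth sets.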
